A study of Mus musculus with 6 samples.

Results

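The 7 genes described here encode cell-surface proteins by which lymphocytes enter, stay in and leave lymph nodes: S1pr1, S1pr4, S1pr5, Cd69, Gpr183, Selplg and Cd44. They were chosen by name, with earlier results of these data known, as were the gene lists below. All 7 were found among the 24628 genes of the deposited table. RNA-seq measured them in mouse ILC1s, innate lymphocytes related to natural killer (NK) cells, in 2 groups of 3 libraries. The first group was titled Rorafl/fl, meaning that both alleles of Rora, the gene of the nuclear receptor RORα, carry loxP sites, and is called floxed here. The second was titled only treatment, and its columns add the name Ncr1 to Rora. It was taken by elimination as the conditional knockout (cKO) named in the series text, which calls the other group wt. The labels give no Cre driver, sort gate, age, sex or number of animals, and call the cells only lymphocytes. Whether the replicates of a group are separate animals is not stated either, and p-values here speak only to the spread among libraries, which may be technical.

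Sphingosine-1-phosphate (S1P) is abundant in blood and lymph and scarce inside lymphoid tissue, and lymphocytes that carry S1P receptors leave the tissue along this gradient. S1PR1 is the main exit receptor of T and B cells, and S1PR5 serves NK cells. CD69 binds S1PR1 and removes it from the cell surface, so its appearance holds cells in the node. GPR183 (EBI2) senses oxysterols and places cells within the node. PSGL-1, the product of Selplg, binds selectins, and CD44 binds hyaluronan.

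The libraries held 20152146 to 22440170 reads assigned to genes. Of 19 identity genes of ILC1s and NK cells, all were tested; 3 rose in the cKO libraries (Eomes, Gzma and Nfil3), 4 fell (Ncr1, Cxcr6, Il7r and Gzmb) and 12 missed the limma threshold. This is 36.8% called, beside 1.32% of all genes tested, and without adjustment 4 were higher and 9 lower at p under 0.05. Ncr1, which encodes NKp46, had a mean of 372 ± 10.8 RPKM (reads per length of gene and depth of library; SD, n = 3) in the floxed group and 246 ± 12.5 RPKM (n = 3) in the cKO group. Eomes, which encodes a factor of NK cells, went from 42.4 ± 2.44 to 65.8 ± 4.31 RPKM and Gzma, which encodes granzyme A, from 108 ± 2.18 to 169.5 ± 2.84 RPKM (n = 3 each). The summed level of the list ran from 1705 to 1718 RPKM in the floxed group and from 1557 to 1605 RPKM in the cKO group. Ncr1 and Gzma kept their calls in all 15 alternatives. The call of Eomes was lost without floxed replicate 3 or cKO replicate 1 or 3 (limma adjusted p up to 0.0617), that of Cxcr6 without any 1 library but floxed replicate 3 (up to 0.0947), and those of Nfil3, Il7r and Gzmb without any single library (up to 0.0991, 0.135 and 0.172). Without the mean-variance trend Nfil3, Cxcr6, Il7r and Gzmb also lost theirs (0.0916, 0.0502, 0.156 and 0.121), as did Cxcr6, Il7r and Gzmb without the filter on low values (0.0670, 0.0655 and 0.113) and Il7r and Gzmb with medians equalised (0.0546 and 0.0626). That of Gzmb ended also with a pseudocount of 0.1 (0.0534) and with quantile normalization (0.0501). The part of these changes in the values of Cd69 and the other 6 genes was not tested. Rora had means of 7.42 ± 0.493 and 6.07 ± 0.334 RPKM (n = 3 each), without overlap of the groups, and missed the threshold (limma adjusted p = 0.242). Limma voom on reads recovered from the RPKM called it lower (adjusted p = 0.0242). The labels do not say which exons are deleted, so its RPKM is no check of the deletion. The cKO libraries also had less Xist, the RNA of the inactive X chromosome (31.9 ± 3.16 against 9.43 ± 0.394 RPKM), and more of the Y-linked Ddx3y (10.4 ± 0.498 against 20.8 ± 0.438 RPKM). The part of this difference in the results below was not tested. All 6 libraries held both RNAs, with Xist at 28.3 to 34.2 RPKM in floxed and 9.09 to 9.86 RPKM in cKO libraries. Ddx3y ran from 10.02 to 10.995 RPKM in floxed and from 20.52 to 21.28 RPKM in cKO libraries. Whether each library pools animals of both sexes, and whether the replicates of a group share a pool, was not tested.

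The upstream sequences of S1pr4 and S1pr5 are shown because the gene of KLF2, a factor known to act on S1P receptor genes, rose in the cKO libraries, as given further on. RefSeq promoter windows (GRCm38.p6) were matched for 4 of the 7 genes, namely S1pr4, S1pr5, Gpr183 and Cd44. Each sequence covers the 250 bases before the annotated start, 5′ to 3′ on the gene's minus strand. Capitals mark CCACCC, the core of a KLF box, or its reverse complement GGGTGG.
S1pr4 (chr10:81500138-81500387): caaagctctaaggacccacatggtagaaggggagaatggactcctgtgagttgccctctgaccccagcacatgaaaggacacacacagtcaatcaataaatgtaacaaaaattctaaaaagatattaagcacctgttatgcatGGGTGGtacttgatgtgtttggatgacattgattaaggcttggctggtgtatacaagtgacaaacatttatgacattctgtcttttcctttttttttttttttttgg
S1pr5 (chr9:21248444-21248693): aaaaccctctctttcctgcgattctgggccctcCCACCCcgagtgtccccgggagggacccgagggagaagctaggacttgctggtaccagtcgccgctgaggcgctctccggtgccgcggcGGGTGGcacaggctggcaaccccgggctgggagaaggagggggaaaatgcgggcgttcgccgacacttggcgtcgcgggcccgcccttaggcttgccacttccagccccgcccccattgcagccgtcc
The S1pr4 window held 1 box, which begins 107 bases before the start, and the S1pr5 window held 2, which begin 217 and 128 bases before it. The windows of Gpr183 and Cd44 held none. Over all 32851 promoter windows of 300 bases in the RefSeq table, 31.5% held this motif on either strand. The AP-1 site TGANTCA was in none of the 4 windows and in 7.81% of all windows. The ROR response element, searched on both strands as AGGTCA or GGGTCA directly after AANT, was in none of the 4 and in 0.435% of all windows.

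One of the 7 genes, Cd69, passed the test and was higher in the cKO libraries, at 1.53 times its floxed level. A gene passed when limma, fitted to log2(RPKM + 1) of all 12731 genes with enough signal, gave a Benjamini-Hochberg adjusted p under 0.05. All 7 genes entered this fit. Of all genes tested, 0.652% passed as higher, 0.668% as lower and 1.32% in either direction. The other 6 genes did not pass, and 0 of them were called lower. Without adjustment, 2 of the 7 were higher and 2 lower at a limma p under 0.05, and voom, an alternative fitted to recovered reads, called 1 higher and 1 lower. Over all genes tested voom called 4.19%, 1.78% higher and 2.41% lower. These shares are the base for all voom counts below. In limma's order of all genes tested, Cd44 ranked 1252, so at least 1252 genes were under this unadjusted limit. S1pr1, which was over it, ranked 2004. The exact share of all genes was not computed, so unadjusted counts here and for the gene lists have no exact base rate. The values of S1pr1, S1pr4 and Gpr183 were lower in every cKO library than in every floxed one, and those of Cd44 were higher. With Cd69, groups did not overlap in 5 of the 7 genes, 2 higher and 3 lower, beside 20.3% of all genes tested (7.61% higher and 12.7% lower). The median log2 difference was -0.04 over the 7 genes and -0.03 over all genes tested. These are bulk libraries, in which fewer cells of a type and less RNA per cell cannot be told apart.

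**Figure D1:**
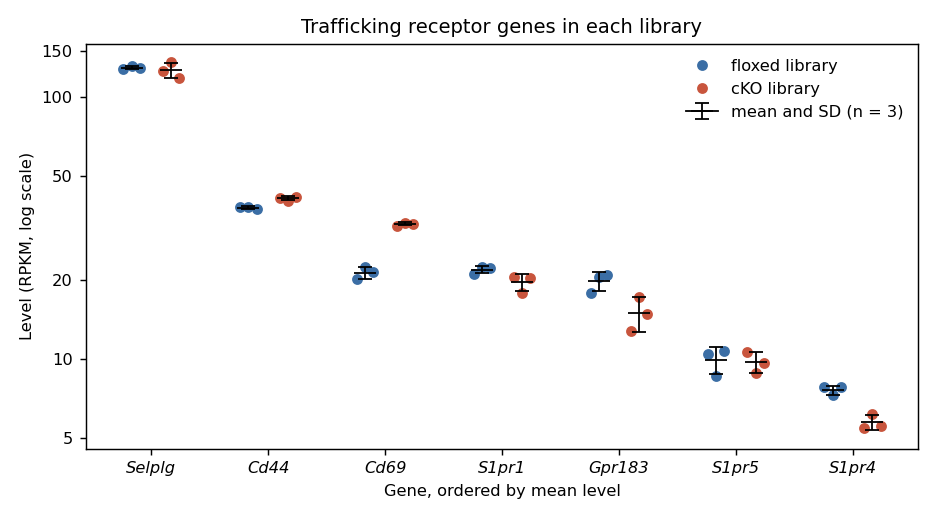
Level of each gene in RPKM (log axis), 1 point per library, with floxed libraries in blue and cKO libraries in red; black bars give the mean and SD of 3 libraries. Cd69 sits between 20.2 and 22.4 RPKM in floxed and between 32.4 and 33.2 RPKM in cKO libraries, while Selplg and S1pr5 overlap between the groups.

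By level per gene length, the order was Selplg, Cd44, Cd69, S1pr1, Gpr183, S1pr5 and S1pr4, from means over all 6 libraries of 128 RPKM down to 6.69 RPKM. Every neighbouring pair in this order kept it in 6 of 6 libraries except Cd69 and S1pr1. Cd69 lay above S1pr1 in 3 of 3 cKO libraries but in only 1 of 3 floxed libraries, where the levels of both genes differed by less than their spread. The narrowest of the other gaps was that of S1pr1 over Gpr183, whose ratio of RPKM ran from 1.04 to 1.61.

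Among the S1P receptors, S1pr1 was the most abundant in every library. S1pr1 (chromosome 3, 115710433 to 115715072, minus strand, mm10, 2 exon blocks) was at 21.2, 22.4 and 22.2 RPKM in floxed and 20.6, 17.9 and 20.4 RPKM in cKO libraries. The groups lay apart by a narrow margin, with cKO replicate 2 the lowest. Their log2 difference was -0.15 (SE 0.07; limma's 95% confidence interval ran from -0.32 to 0.01), with adjusted p = 0.379, and the interval includes 0.

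S1pr4, a receptor mostly of haematopoietic cells, had the lowest level of the 7 genes and was at 75.2% of its floxed level in the cKO libraries. S1pr4 (chromosome 10, 81497745 to 81500132, minus strand, 1 exon block) was at 7.81, 7.29 and 7.82 RPKM in floxed and 5.47, 6.19 and 5.58 RPKM in cKO libraries. Every cKO value lay below every floxed value. This gave a log2 difference of -0.36 (SE 0.08, 95% confidence interval -0.54 to -0.17), with an unadjusted p of 0.00267 in limma and adjusted p = 0.104 over all genes. It rested on 293 to 405 reads per library, the fewest of the 7. Its spread within groups, a coefficient of variation of 3.94% in floxed and 6.75% in cKO libraries, was close to that of counting alone, 5.09% and 5.78%.

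S1pr5, which lets NK cells leave lymph nodes and bone marrow, was at nearly the same level in both groups. S1pr5 (chromosome 9, 21242912 to 21248443, minus strand, 3 exon blocks) was at 10.5, 8.63 and 10.8 RPKM in floxed and 10.7, 8.87 and 9.72 RPKM in cKO libraries, and the groups overlapped throughout. The log2 difference was -0.02 (95% confidence interval -0.27 to 0.23, limma adjusted p = 0.948). Its sign turned when medians were equalised (0.02) or quantiles normalised (0.01). Of its 2500 exon bases, 51 are shared with a gene on the opposite strand, and the sources used here do not say whether the counting used strand.

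S1pr2 and S1pr3, named here although they are not among the 7, were at 0.296 ± 0.0859 and 0.201 ± 0.202 RPKM in floxed and 0.407 ± 0.0382 and 0.183 ± 0.104 RPKM in cKO libraries (SD, n = 3 each), under the minimum for testing. Summed over all 5 S1P receptor genes, the level ran from 38.8 to 41.6 RPKM in the floxed group and from 33.6 to 37.3 RPKM in the cKO group. S1pr1 held 54.9 ± 2.59% of this sum in floxed and 54.9 ± 1.32% in cKO libraries (n = 3 each), and the groups overlapped. The share of S1pr4 ran from 18.8% to 19.7% across the floxed group and from 14.7% to 18.4% across the cKO group, and that of S1pr5 from 22.3% to 26.3% and from 26.4% to 28.7%. The groups thus lay apart by a narrow margin for both shares, that of S1pr4 lower and that of S1pr5 higher in the cKO libraries. Shares of 1 sum depend on each other, and S1pr5 itself was at 9.95 ± 1.15 and 9.76 ± 0.915 RPKM (n = 3 each). The shares follow from the values of the single genes and are no separate finding.

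Cd69, whose product acts against S1PR1, rose in the cKO libraries. Cd69 (chromosome 6, 129267325 to 129275436, minus strand, 4 exon blocks) was at 20.2, 22.4 and 21.5 RPKM in floxed and 32.4, 33.2 and 32.9 RPKM in cKO libraries. The groups lay far apart relative to their spread, which was 5.18% of the mean in floxed and 1.33% in cKO libraries. In limma the log2 difference came to 0.60 (SE 0.05, 95% confidence interval 0.47 to 0.73), with adjusted p = 0.00563. An exact two-sided permutation test of the group means gave p = 0.1, the smallest that 20 assignments of 3 against 3 allow. Reads numbered 2858 to 3029 in the floxed group and 4566 to 4727 in the cKO group. The call held in 15 of 15 alternative analyses, with adjusted p between 3.75e-08 and 0.0415.

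Because both levels come from 1 library, the ratio of Cd69 to S1pr1 does not depend on how libraries are scaled. It was 0.956, 1.001 and 0.967 in floxed and 1.57, 1.85 and 1.61 in cKO libraries. The floxed libraries thus held about equal levels of both RNAs per length, and the cKO libraries held more of Cd69. The difference in log2 ratio was 0.78, and an exact two-sided permutation test gave p = 0.1, again the smallest possible. This direction follows from the values of the single genes and is no separate finding.

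**Figure D2:**
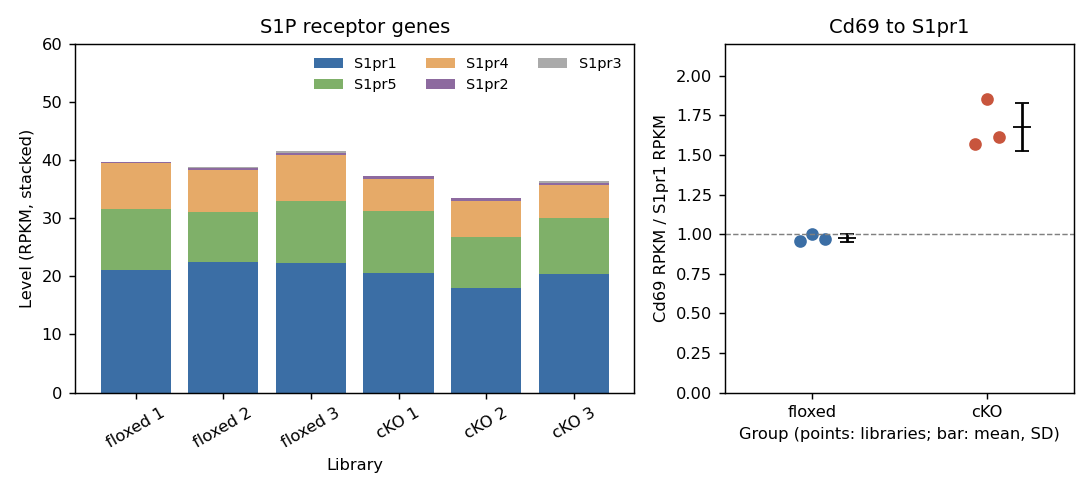
Left, stacked bars of the RPKM of the 5 S1P receptor genes in each library, from 33.6 to 41.6 RPKM in sum; right, the ratio of Cd69 to S1pr1 RPKM, 1 point per library with the mean and SD of 3 libraries beside it and a dashed line at equal levels. The 3 cKO ratios lie between 1.57 and 1.85 and the 3 floxed ratios between 0.956 and 1.001.

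CD69 is also an early activation antigen, and the same cKO libraries held more RNA of immediate-early genes. Of 25 tested members of that list, 16 rose and 0 fell in limma, with a median log2 difference of 0.49. This is 64% called, beside 1.32% of all genes tested. Without adjustment 20 were higher and 2 lower at p under 0.05, and voom called 20 and 1. Their summed level ran from 2031 to 2038 RPKM in the floxed group and from 3312 to 3340 RPKM in the cKO group. Fos, a subunit gene of the AP-1 factor, rose from 168 ± 0.819 to 346 ± 13.7 RPKM and Klf4 from 44.0 ± 0.201 to 92.5 ± 2.998 RPKM (n = 3 each, limma adjusted p = 0.000296 and 0.000296). The 16 include Hspa1a and Hspa1b, near-identical heat-shock genes between which reads can be shared, and 14 of the other 23 tested members rose. Hspa1a rose from 10.7 ± 1.46 to 43.4 ± 1.91 RPKM and Hspa1b from 34.3 ± 1.16 to 115.8 ± 6.07 RPKM (n = 3 each, limma adjusted p = 0.000708 and 0.000185). The part of the immediate-early and heat-shock genes in the change of Cd69 was not tested.

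Gpr183, the oxysterol receptor, was at 75.4% of its floxed level in the cKO libraries and did not pass. Gpr183 (chromosome 14, 121952331 to 121965193, minus strand, 2 exon blocks) was at 18.0, 20.6 and 21.0 RPKM in floxed and 12.8, 17.3 and 14.9 RPKM in cKO libraries. The groups lay apart, but cKO replicate 2 came within 1 RPKM of floxed replicate 1. Limma gave a log2 difference of -0.39 (SE 0.12, 95% confidence interval -0.67 to -0.12) and adjusted p = 0.204. Limma voom on reads recovered from the RPKM called it lower (adjusted p = 0.0172), in an analysis that called 4.19% of all genes, 1.78% higher and 2.41% lower, and adjusted p over the alternatives ran from 0.0172 to 0.415. Its spread in the cKO group, 15.1% of the mean, was the widest of the 7 genes and well above the 3.23% of counting alone.

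B cells and dendritic cells also carry GPR183, and some of their marker genes were lower in the same libraries. Of 12 B cell markers, 4 were tested, and Cd22 fell, from 9.93 ± 0.285 to 6.49 ± 0.649 RPKM (n = 3 each, limma adjusted p = 0.0353), a call lost without any 1 library but cKO replicate 3 (adjusted p up to 0.137), without the filter on low values (0.0759) or without the trend (0.0637). This is 25% of those tested, beside 1.32% of all genes tested. At an unadjusted limma p under 0.05, 1 was higher and 2 lower. The mean of 11 of the 12 was lower in the cKO group. The exception was Ighm, the immunoglobulin μ heavy chain gene, at 65.6 ± 2.18 and 76.2 ± 5.60 RPKM (limma adjusted p = 0.208), which made up most of the summed level of 80.7 to 86.3 RPKM in the floxed and 80.7 to 91.9 RPKM in the cKO group. Without Ighm the sum ran from 17.4 to 18.8 RPKM in the floxed group and from 10.9 to 12.5 RPKM in the cKO group. Of 11 dendritic cell markers, 5 were tested and Cd74 and H2-Ab1, genes of MHC class II presentation, fell. This is 40% called, beside 1.32% of all genes tested. At an unadjusted limma p under 0.05, 1 was higher and 3 lower, and voom called 1 and 2. The 3 lower were Cd74, H2-Ab1 and H2-Aa, all genes of MHC class II presentation. The higher one was Itgax, the most abundant of the list, at 56.1 ± 4.13 and 65.8 ± 3.49 RPKM (limma adjusted p = 0.206). Its groups did not overlap. By mean, 9 of the 11 were lower and 2 higher in the cKO group, Itgax and Zbtb46. Zbtb46, a transcription factor gene, was at 2.47 ± 0.428 and 2.73 ± 0.258 RPKM (n = 3 each, limma adjusted p = 0.772). The sum ran from 156 to 163 RPKM in the floxed group and from 128 to 132 RPKM in the cKO group. Its fall came mostly from the class II genes Cd74 and H2-Ab1. The call of H2-Ab1 was lost without floxed replicate 3 or cKO replicate 2 or 3 (limma adjusted p up to 0.0624). The defining B cell genes Ms4a1 and Pax5 were under the minimum for testing but above 0, at means of 0.318 and 0.374 RPKM in the floxed and 0.103 and 0.121 RPKM in the cKO group, and neither overlapped between groups. Lower markers were not limited to these 2 lists. Of 11 tested T cell markers Cd3e fell, from 5.35 ± 0.430 to 2.93 ± 0.142 RPKM (n = 3 each, limma adjusted p = 0.0232). Of 4 tested ILC3 markers Lta fell, from 24.6 ± 1.84 to 17.8 ± 0.469 RPKM (n = 3 each, limma adjusted p = 0.0377). These are 9.09% and 25% called, beside 1.32% of all genes tested. At an unadjusted limma p under 0.05, 1 T cell marker was higher and 3 lower, and 1 ILC3 marker each way. No listed marker was at 0 in all 6 libraries. The part of any of these cell types in the values of Gpr183 was not tested.

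Of the homing receptors, Selplg was the most abundant gene of the 7 and did not differ beyond its spread. Selplg (chromosome 5, 113818536 to 113832644, minus strand, 3 exon blocks), the gene of PSGL-1, was at 128, 132 and 129 RPKM in floxed and 126, 136 and 118 RPKM in cKO libraries, and the groups overlapped. The log2 difference was -0.04 (95% confidence interval -0.17 to 0.10, limma adjusted p = 0.831), and it turned to 0.01 when medians were equalised. The cKO libraries spread more widely, with a coefficient of variation of 6.84% against 1.65% in floxed libraries.

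Cd44, a marker of activated and memory lymphocytes, was slightly higher in the cKO libraries without passing. Cd44 (chromosome 2, 102811141 to 102901665, minus strand, 19 exon blocks) was at 38.2, 38.1 and 37.3 RPKM in floxed and 41.4, 40.3 and 41.7 RPKM in cKO libraries. The groups lay apart, and the spread was small in both, at 1.28% and 1.88% of the mean. Its log2 difference was 0.12 (SE 0.04, 95% confidence interval 0.02 to 0.22), with an unadjusted p of 0.0284 in limma and adjusted p = 0.289. These values cover the whole gene, so variant exons of Cd44 cannot be read from them.

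**Figure D3:**
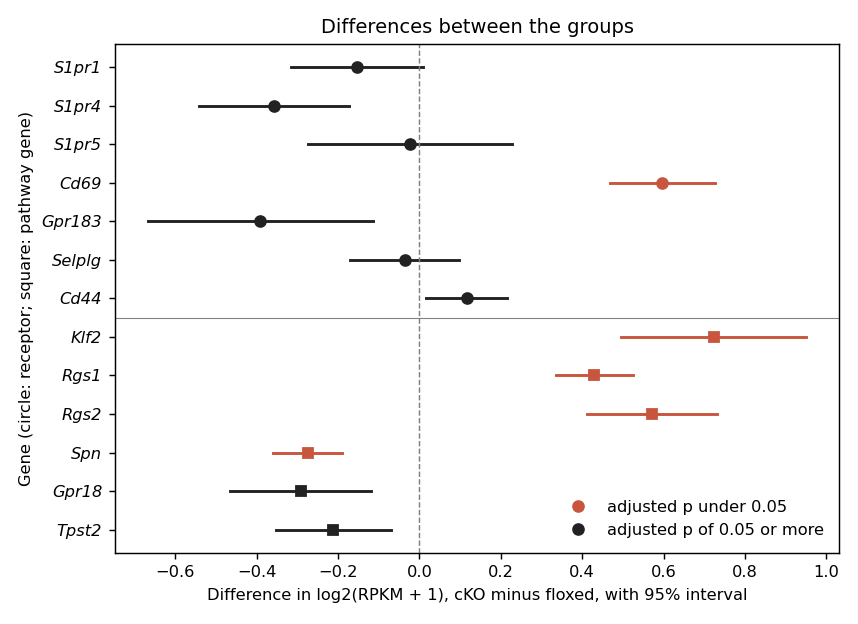
Difference in log2(RPKM + 1), cKO minus floxed, with its 95% confidence interval from limma for the 7 receptor genes (circles) and 6 genes of their pathways (squares); red marks an adjusted p under 0.05. Cd69 at 0.60, Klf2 at 0.72, Rgs1 at 0.43 and Rgs2 at 0.57 lie to the right of 0 and Spn at -0.27 to the left, all in red.

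Of 34 genes of S1P signalling and its control, 25 were tested, and in limma 3 rose, 0 fell and 22 missed the threshold. This is 12% called, beside 1.32% of all genes tested. Without adjustment 3 were higher and 3 lower at p under 0.05, and voom called 3 and 1. The list includes S1pr1, S1pr4 and S1pr5 themselves, and S1pr4 is 1 of the 3 lower. The median log2 difference was -0.01, against -0.03 over all genes. Klf2, which encodes a factor known to drive S1pr1 in T cells, was at 51.0, 41.3 and 41.7 RPKM in floxed and 68.9, 74.2 and 79.6 RPKM in cKO libraries. It rose by a log2 difference of 0.72 (SE 0.10, limma adjusted p = 0.0230), in the same libraries in which S1pr1 lay at 89.5% of its floxed level. Rgs1 and Rgs2 encode proteins that shorten signalling through Gα subunits of G protein-coupled receptors, and differ in the subunits they act on. Whether they act on the S1P receptors of these cells was not tested. Rgs1 rose from 121 ± 3.92 to 164 ± 2.11 RPKM and Rgs2 from 43.0 ± 2.90 to 64.4 ± 3.62 RPKM (n = 3 each, limma adjusted p = 0.00589 and 0.0142). The inhibitory G protein gene Gnai2, at 162 ± 8.59 and 167 ± 5.36 RPKM, and the receptor kinase gene Grk6, at 147 ± 2.01 and 150.2 ± 3.18 RPKM, did not pass.

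The call of Rgs1 was lost only without the mean-variance trend among the alternatives run, at an adjusted p of 0.0504. That of Klf2 was lost without the filter on low values (0.0669), without the trend (0.0637), and without floxed replicate 2 or 3 or any 1 of the cKO replicates (up to 0.0980). That of Rgs2 was lost without the trend (0.0554) and without floxed replicate 3 or any 1 of the cKO replicates (up to 0.0630).

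Among 22 entry and adhesion genes in the table, 21 were tested, 0 rose and 1 fell in limma (median -0.07). This is 4.76% called, beside 1.32% of all genes tested. At an unadjusted limma p under 0.05, 4 were higher and 6 lower, and voom called 2 and 3. The gene that fell was Spn, which encodes CD43, a mucin that like PSGL-1 can carry selectin ligands. Spn was at 207, 212 and 209 RPKM in floxed and 169, 173 and 177 RPKM in cKO libraries, with a log2 difference of -0.27 (SE 0.04, limma adjusted p = 0.0222). Leaving out any single library ended this call, with adjusted p of 0.0624 to 0.0994, as did fitting without the filter on low values (0.05003) or without the trend (0.129). The subunit genes of the integrin LFA-1, Itgal (162 ± 8.51 and 148 ± 2.42 RPKM) and Itgb2 (238 ± 3.33 and 227 ± 0.986 RPKM), did not pass.

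Of 22 genes of selectin ligands and their glycosylation, 17 were tested, 0 rose and 1 fell in limma, again Spn, with a median of -0.03. This is 5.88% called, beside 1.32% of all genes tested. The counts were 1 higher and 3 lower at an unadjusted limma p under 0.05, and 1 and 1 by voom. Tpst2, which encodes a tyrosine sulfotransferase of the kind that modifies PSGL-1, had means of 32.1 ± 0.864 and 27.6 ± 1.77 RPKM and missed the threshold (limma adjusted p = 0.191). Of 7 genes listed with GPR183 and its oxysterol ligands, 2 had enough signal for the test, Gpr183 and Gpr18, and 0 passed in either direction. Neither encodes an oxysterol enzyme, and no enzyme of the list was tested. Without adjustment, 0 were higher and 2 lower with a limma p under 0.05, and voom gave 0 higher and 1 lower, Gpr183 itself. Gpr18, which encodes another receptor, was at 13.8 ± 1.13 and 11.0 ± 0.247 RPKM (limma adjusted p = 0.149). It lies within 500 kb of Gpr183 and is counted again among the neighbouring genes below. Hsd3b7, which encodes an enzyme that inactivates the oxysterol ligand, was at 1.01 ± 0.221 and 0.598 ± 0.140 RPKM, under the minimum for testing.

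Of 19 genes of CD44 partners and hyaluronan in the table, 11 were tested, 0 rose and 1 fell in limma (median -0.02). This is 9.09% called, beside 1.32% of all genes tested. At an unadjusted limma p under 0.05, 1 was higher and 1 lower, and voom called 0 and 1. The higher one was Cd44 itself, which the list includes. The one that fell was Cd74, whose product pairs with CD44 as a receptor for the cytokine MIF and is also the invariant chain of MHC class II. Cd74 fell from 54.1 ± 3.93 to 32.0 ± 4.61 RPKM (n = 3 each, limma adjusted p = 0.0305), a call lost without any 1 floxed replicate or without cKO replicate 1 or 2, with adjusted p up to 0.125, and also without the filter on low values (0.0863) or the trend (0.0794). Ezr, which encodes ezrin, a linker between CD44 and actin, had means of 352 ± 2.18 and 364 ± 12.2 RPKM and missed the threshold.

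The 7 genes lie on 7 chromosomes, all on the minus strand. Genes within 500 kb of each were read from the same fit. Of 36 tested genes around S1pr4, 1 passed, Gna15, which encodes the G protein subunit Gα15 and lies 2.17 kb away. Gna15 fell from 26.4 ± 2.19 to 14.3 ± 0.925 RPKM (n = 3 each, limma adjusted p = 0.00658). Of 24 tested genes around Cd69, which lies in the NK gene complex of lectin-like receptors, 0 rose and 3 fell in limma: Klrb1b, the predicted gene Gm44511 and Klrc1. Of all genes tested, 0.668% passed as lower. Without adjustment 2 of the 24 were higher and 8 lower at p under 0.05, and voom called 1 and 4. Klrb1b, which lies 441 kb from Cd69, fell from 167 ± 2.26 to 92.0 ± 2.49 RPKM (adjusted p = 0.000524). It overlaps Gm44511, so their reads may not be separable. Klrc1, which encodes NKG2A and lies 391 kb away, fell from 199 ± 4.82 to 150.4 ± 9.46 RPKM (adjusted p = 0.0239), a call that ended on leaving out any single library, with adjusted p of 0.0575 to 0.0940, and without the filter on low values (0.0670) or the trend (0.101). Around the other 5 genes 0 of 63 tested genes passed in limma, and at an unadjusted p under 0.05 there were 3 higher and 5 lower, while voom gave 1 higher and 1 lower.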

How the data were processed

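RNA-seq libraries were made from total RNA with a stranded mRNA kit, per the labels' protocols. Per the submitters' processing notes, the tools were edgeR 3.12.1, Subread 1.5.1 with featureCounts, and STAR 2.5.3a, and the build was mm10; for the role of each tool, strand setting and duplicate handling nothing was given in the sources used here. The authors deposited RPKM for 24628 genes. The product of RPKM and gene length was a whole number of equal steps for 100% of values (tolerance 0.01 reads), which gave the reads per library.

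The 7 genes, the 16 gene lists and the tests were chosen with earlier results of these data known. Genes that reached 1 RPKM in 3 or more of 6 libraries were fitted with limma 3.58.1 in R 4.3.3 (lmFit, eBayes with a trend) on log2(RPKM + 1), which understates changes of low genes. P-values were two-sided and adjusted by Benjamini-Hochberg over 12731 genes. Exact permutations ran in Python 3.11.15. The fit was checked on simulated data. Alternatives changed the pseudocount, filter, scaling, trend and count model, added a replicate block or left out 1 library. Named genes are the 7, Rora, from each pathway list up to 6 that passed and up to 3 others by level, genes that passed within 500 kb, and the 3 most like Cd69 and S1pr1; a few genes under this rule are not reported here.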

Additional observations from a re-analysis of the deposited data

How the results depend on the processing

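Cd69 kept its call in all 15 alternatives (log2 difference 0.52 to 0.65), as did the side of the threshold of S1pr1, S1pr4, S1pr5, Selplg and Cd44; voom called Gpr183 (-0.4172), the 1 member it called lower. The sign of S1pr5 turned with medians equalised (0.0221), with quantile normalization (0.0093) and with 1 library left out (-0.1133 to 0.0372), and that of Selplg with medians equalised (0.0136) and with 1 library left out (-0.0867 to 0.0107). The log2 Cd69 to S1pr1 ratio kept its direction (0.71 to 0.83). Over all genes, 83 rose and 85 fell. Counts were 44 and 36 without the filter on low values, 39 and 35 without the trend, 226 and 307 with voom, 33 to 50 and 27 to 39 with 1 library left out, and 129 and 70 with medians equalised, where 64.8% of calls were higher against 49.4%. A replicate block left 37 and 23; Cd69 kept its call (adjusted p = 0.0398). The calls of Gna15 (0.0567), Klrc1 (0.0567), Nfil3 (0.0756), Gzmb (0.0807), Spn (0.0896), Cxcr6 (0.0927), Klf2 (0.0963), Irf2bpl (0.112), Il7r (0.120) and Cd22 (0.129) missed the threshold in it. Deviations of same-numbered libraries from their group means had correlations of -0.03, 0.01 and 0.04. With 3 libraries per group and counting spread in these deviations, such small values cannot exclude that the numbers pair the samples. Depth limits S1pr4 most, at 293 to 405 reads.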

Other observations

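Of 12 genes that mark stages of NK cell maturation, S1pr5 among them, all were tested, 0 rose and 0 fell in limma, with a median log2 difference of -0.01. At an unadjusted p under 0.05, 1 lay above and 1 below, and voom called 1 higher and 1 lower. Tcf7, which encodes a factor of early and memory-like cells, was at 226 ± 7.24 RPKM in floxed and 239.6 ± 3.54 RPKM in cKO libraries (SD, n = 3 each), and Cd27, a marker of less mature NK cells, at 109 ± 2.89 and 104 ± 0.337 RPKM.

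The genes whose log2(RPKM + 1) followed Cd69 most closely over the 6 libraries, among 5113 genes with a mean of at least 10 RPKM, were Pnrc1 (Pearson r = 0.997), Irf2bpl (0.995) and Ddx3y (0.995). Those that followed S1pr1 were Ankhd1 (r = 0.978), Prkd2 (0.974) and Sike1 (0.967). With 6 libraries in 2 groups, genes that differ between the groups resemble Cd69 by that alone, so these values are descriptions. Ddx3y is Y-linked, and the difference in sex-linked RNA between the groups was not separated from that of Cd69.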
